A study of Arabidopsis thaliana with 18 samples.

Results

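Seedlings of Arabidopsis thaliana with a T-DNA insertion in PRMT5 (prmt5) were sequenced at the end of 3 days at 37 °C and without heat at 22 °C, in 3 libraries each. PRMT5 is the type II protein arginine methyltransferase that places symmetric dimethyl marks on arginines of histones and spliceosomal proteins. Both prmt5 groups carry the insertion, so the temperature is the labelled difference between them, and the same 2 conditions in wild type (WT, 3 libraries each) serve below to show where the response of prmt5 differs. All seedlings grew on medium with sucrose. Allele, number of lines, plant age and harvest hour go unstated in the labels, so the temperature cannot be told apart from any difference in age or hour between the groups. Nothing in the labels ties the 3 libraries of a group to plants grown apart; p-values thus measure the spread between libraries, which may be technical.

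The genes described are those with a mean of at least 1 TPM (a transcript level scaled to gene length and to the library's total) over the 6 prmt5 libraries, which holds for 21006 of the 37916 genes listed. Of the 16910 left out, 7937 were listed at 0 in all 6 libraries. SPL3, at a mean of 1.00 TPM over the 6 libraries, lies just inside this limit, and AT4G15563, at 0.998 TPM, just outside; 269 genes had a mean of 1 to 1.1 TPM and 287 a mean of 0.9 to 1 TPM. A mean over both groups lets a gene in through 1 group alone: 1942 genes reached 1 TPM only after heat and 1552 only at 22 °C, so their differences are in part set by the limit. The other 17512 genes averaged at least 1 TPM in both groups.

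Heat unfolds proteins. In plants, heat shock transcription factors (HSFs) bound to heat shock elements, inverted repeats of GAA, switch on chaperones: small heat shock proteins hold unfolded proteins, HSP70 and HSP90 refold them, and HSP101 pulls aggregates apart. Proteins that misfold in the endoplasmic reticulum (ER) set off the unfolded protein response, and proteins beyond repair go to the proteasome or to autophagy. Arginine methylation by PRMT5 is known in Arabidopsis for its part in pre-mRNA splicing, in flowering time and in the pace of the circadian clock.

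PRMT5 itself had 8.87, 5.44 and 5.64 TPM in heated prmt5 libraries, against 2.32, 3.35 and 4.51 TPM at 22 °C. It had 47.7, 44.2 and 45.8 TPM in heated WT libraries, against 27.4, 26.2 and 25.3 TPM in WT at 22 °C, so the transcript in prmt5 stood at 14.5% of its WT level after heat and at 12.9% at 22 °C, and no prmt5 library overlapped a WT library of the same temperature. Each of these contrasts has an exact permutation p of 0.1, the smallest that 3 against 3 libraries can give. The tissue label, seedling, fits the transcripts at 22 °C: genes of photosynthesis made up 122500.0 to 155062 TPM of each prmt5 library, and markers of root hairs (RHS19, 13.7 TPM), xylem (XCP2, 56.5 TPM) and epidermis (PDF1, 442 TPM) were present. Correlations of log2 TPM were 0.970 to 0.981 among the heated prmt5 libraries, 0.974 to 0.983 among those at 22 °C and 0.583 to 0.630 between the 2 groups. Library 1 of the heated prmt5 group kept more photosynthesis and glucosinolate transcripts than its replicates, and its values are given with those results. In whole seedlings, fewer cells of a type and less RNA per cell cannot be told apart.

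Heat changed the level of most transcripts in prmt5. In limma's moderated test on log2(TPM + 1), with Benjamini-Hochberg adjustment over all 21006 genes, 17544 genes (83.5%) had an adjusted p under 0.05: 9881 were higher (47.0%) and 7663 lower (36.5%), with a median log2 change of 0.23 over all genes tested. The upward share of these calls was 56.3%, and 52.3% and 53.3% after the scalings named below. A change of more than 2-fold was reached by 6153 genes upward (29.3%) and by 5110 downward (24.3%), and one of more than 8-fold by 892 upward and by 1024 downward. The 6 libraries did not overlap for 81.6% of the genes, with all heated libraries above for 46.2% and all below for 35.4%. Among the 17512 genes with at least 1 TPM in both groups, 8101 rose and 6224 fell. Every list below is to be read against these shares: a list in which 47.0% of the members rise is at the background. Fold changes are on the log2(TPM + 1) scale, which understates the change of genes near 0, and another scaling of the libraries (median ratios or quantiles) lowered the median of all genes by 0.14 or 0.12, so a change near 0 has no firm sign. Means are given with the SD over the 3 libraries of a group, here and below.

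**Figure D1:**
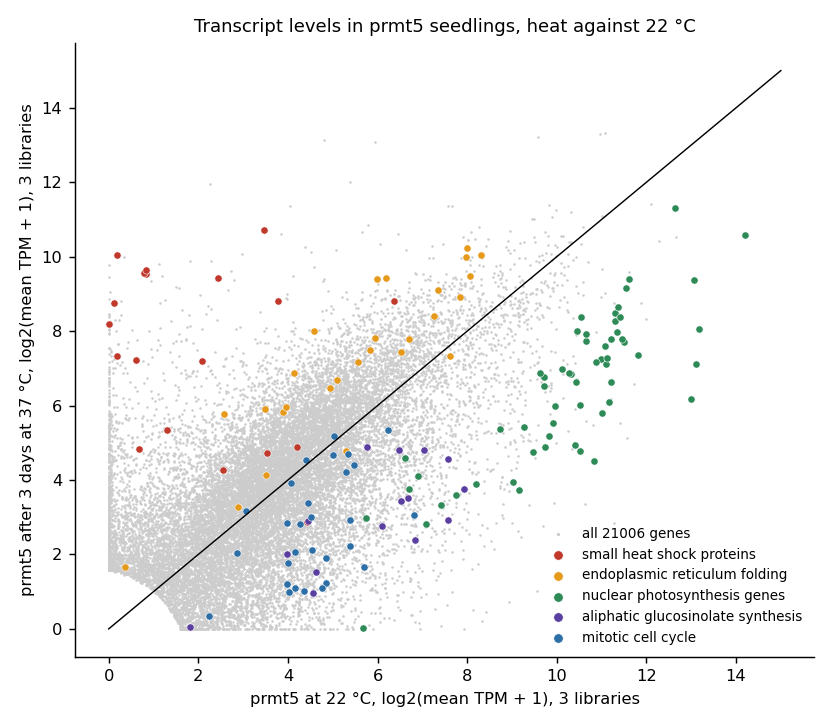
Each point is one of the 21006 genes, with its mean level in 3 prmt5 libraries after heat on the y axis and in 3 at 22 °C on the x axis, both as log2(mean TPM + 1), and with 5 gene lists in colour. Small heat shock proteins (red) lie far above the line of equal levels except 1 of 19, and all 58 photosynthesis genes (green) and all 16 glucosinolate genes (purple) lie below it.

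The heat shock factors and the small heat shock proteins they switch on come first. The promoters shown are those of the factor and of the small heat shock proteins of the cytosol (2 classes) and plastid that the results turn on. They are the 250 bases before the annotated transcription start (RefSeq, TAIR10.1; the submitters' processing notes name TAIR10), written 5′ to 3′ on the gene's strand, with the heat shock element GAANNTTC in capitals:
HSFA2: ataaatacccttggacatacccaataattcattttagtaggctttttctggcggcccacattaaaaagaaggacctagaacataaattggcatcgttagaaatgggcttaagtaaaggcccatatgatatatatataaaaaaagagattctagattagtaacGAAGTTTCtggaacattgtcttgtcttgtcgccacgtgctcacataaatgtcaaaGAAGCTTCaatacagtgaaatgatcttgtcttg
HSP17.6C-CI: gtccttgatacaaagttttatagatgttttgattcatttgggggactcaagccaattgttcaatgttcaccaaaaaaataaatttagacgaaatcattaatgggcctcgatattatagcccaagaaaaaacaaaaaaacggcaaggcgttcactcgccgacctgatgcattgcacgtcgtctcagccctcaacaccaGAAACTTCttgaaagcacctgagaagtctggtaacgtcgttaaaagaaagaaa
HSP21: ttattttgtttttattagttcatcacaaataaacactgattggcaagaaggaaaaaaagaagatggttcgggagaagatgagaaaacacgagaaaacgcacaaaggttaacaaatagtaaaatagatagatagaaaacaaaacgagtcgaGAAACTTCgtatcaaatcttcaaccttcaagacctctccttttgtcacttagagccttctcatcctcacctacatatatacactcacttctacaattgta
HSP17.6II: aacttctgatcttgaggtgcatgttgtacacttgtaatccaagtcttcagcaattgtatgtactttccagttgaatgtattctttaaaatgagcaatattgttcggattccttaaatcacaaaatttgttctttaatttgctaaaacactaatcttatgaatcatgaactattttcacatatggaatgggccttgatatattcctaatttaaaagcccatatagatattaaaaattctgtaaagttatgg
The windows lie at chr2:11135374-11135623 (plus strand) for HSFA2, chr1:19980049-19980298 (plus strand) for HSP17.6C-CI, chr4:13819972-13820221 (minus strand) for HSP21 and chr5:3883112-3883361 (minus strand) for HSP17.6II. The HSFA2 window holds 2 elements, 88 to 81 and 33 to 26 bases before the start, that of HSP17.6C-CI holds 1 at 53 to 46 bases, that of HSP21 holds 1 at 100 to 93 bases, and in that of HSP17.6II these letters do not occur. Windows not shown were read for HSP17.6A, HSP101, HSP70-4, BIP3, ROF2, MBF1C, SMR5, MYB28 and PRMT5. These letters occur in none of them, so the element is more frequent among the windows shown than among all those read. GAANNTTC reads the same on both strands. It lies in 9.45% of the same windows of all nuclear genes (3579 of 37879), in 9.39% of those of the genes tested, in 14.5% (30 of 207) of those of genes with a log2 change above 5, and in 7.33% of those of genes below -3. Of the tested members of the lists it lies in 4 of 19 windows of small heat shock proteins (21.1%), 3 of 17 of HSFs (17.6%) and 0 of 22 of ATP-driven chaperones. A match is a description of the letters and not a binding site.

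Of the 21 HSFs listed, 17 passed the limit; 13 rose, 3 fell and 1 did not pass the test. HSFA2, the factor that amplifies and prolongs the heat response, had 91.3, 92.8 and 135 TPM in heated prmt5 libraries, against 0.41, 0.65 and 1.34 TPM at 22 °C. All heated libraries were far above those at 22 °C, a log2 change of 5.91 ± 0.21 (SE; adjusted p = 6.8e-13). HSFA3, a target of DREB2A, had 39.6, 45.6 and 39.5 TPM in heated prmt5 libraries, against 1.47, 1.86 and 1.48 TPM at 22 °C, with a log2 change of 4.03 ± 0.14 (SE; adjusted p = 6.2e-13). Of the class B factors, the repressors HSFB1 and HSFB2A rose with HSFA2 and HSFA3. HSFB1 averaged 137 ± 16.6 TPM after heat against 17.3 ± 1.58 TPM at 22 °C (log2 change 2.91) and HSFB2A 33.4 ± 1.95 TPM after heat against 2.36 ± 0.818 TPM at 22 °C (3.38). The master regulators of class A1, which are present before heat, changed less, with log2 changes of 1.43, 0.60, 1.09 and 1.02 for HSFA1A, HSFA1B, HSFA1D and HSFA1E. HSFA7A, a factor known as an early heat-induced gene, fell to 2.15 ± 0.943 TPM after heat against 5.65 ± 1.6 TPM at 22 °C. HSFB4, also of class B and known from root stem cells, fell to 2.96 ± 1.27 TPM after heat against 15.6 ± 2.95 TPM at 22 °C, and HSFC1 to 2.21 ± 0.0794 TPM after heat against 9.76 ± 0.946 TPM at 22 °C.

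Small heat shock proteins had the highest median change of the 53 lists: of 19, 18 rose and 1 fell, with a median log2 change of 6.65, and 9 of the 19 passed the limit only through the heated libraries. HSP17.6II, of the second cytosolic class, had 815, 1083 and 1252 TPM in heated prmt5 libraries, against 0.33, 0.07 and 0 TPM at 22 °C, the largest change of any gene on the lists at 9.85 ± 0.21 (SE; adjusted p = 3.8e-15). HSP17.6C-CI, of the first cytosolic class, had 584, 719 and 969 TPM in heated prmt5 libraries, against 0.8, 0.57 and 0.77 TPM at 22 °C; no heated library overlapped the libraries at 22 °C. HSP21, which guards plastid membranes and transcription, had 224, 255 and 391 TPM in heated prmt5 libraries and was listed at 0 in all 3 prmt5 libraries at 22 °C. The mitochondrial HSP23.6 averaged 434 ± 56 TPM after heat against 0.0833 ± 0.0723 TPM at 22 °C and the ER-resident HSP22.0 162 ± 31.9 TPM after heat against 0.137 ± 0.135 TPM at 22 °C. HSP18.5, the member with the highest level at 22 °C, rose to 445 ± 39.1 TPM after heat against 81.8 ± 21.4 TPM at 22 °C. HSP15.4 was the one that fell, to 6.27 ± 2.63 TPM after heat against 20.5 ± 3.09 TPM at 22 °C (log2 change -1.62 ± 0.24 (SE; adjusted p = 1.2e-05)). Summed, the 19 genes had 6058, 7821 and 9917 TPM in heated prmt5 libraries, against 204, 157 and 151 TPM at 22 °C.

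Of 22 ATP-driven chaperones, 19 rose and 3 did not pass the test. HSP70-4, the main cytosolic heat-induced HSP70, had 1505, 1600.1 and 1586 TPM in heated prmt5 libraries, against 14.8, 12.2 and 12.9 TPM at 22 °C, and HSP90.1, the inducible HSP90, had 776, 795 and 780.5 TPM in heated prmt5 libraries, against 5.34, 5.72 and 5.9 TPM at 22 °C. Of their constitutive relatives, HSC70-1 averaged 1350.5 ± 131 TPM after heat against 1275 ± 153 TPM at 22 °C (log2 change 0.09 ± 0.12 (SE; adjusted p = 0.51)) and HSP90.3 489.9 ± 28.2 TPM after heat against 421 ± 40.4 TPM at 22 °C (0.22 ± 0.09 (SE; adjusted p = 0.026)). HSP90.2 and HSP90.3 belong to a cluster of near-identical genes, between which reads may be split unevenly. The disaggregase HSP101 had 104, 119 and 121 TPM in heated prmt5 libraries, against 3.57, 3.9 and 4.28 TPM at 22 °C, a change of 4.55 ± 0.14 (SE; adjusted p = 1.3e-13). Its mitochondrial relative CLPB4 rose to 96.8 ± 2.61 TPM after heat against 11.6 ± 1.72 TPM at 22 °C, and the plastid CLPB3 to 92 ± 4.88 TPM after heat against 41.8 ± 3.01 TPM at 22 °C. Of the organelle HSP70s, the mitochondrial mtHSC70-2 averaged 619.9 ± 18.6 TPM after heat against 63.3 ± 7.98 TPM at 22 °C. The plastid form cpHSC70-1 averaged 359 ± 23.2 TPM after heat against 275 ± 38.1 TPM at 22 °C. Its partner cpHSC70-2, at 278 ± 27.7 TPM after heat against 303 ± 35.4 TPM at 22 °C, did not pass the test (adjusted p = 0.29), nor did the plastid HSP90.5 (adjusted p = 0.47).

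Each of the 16 co-chaperones and thermotolerance factors rose (median 3.27). The immunophilins ROF1 and ROF2, which bind HSP90 and escort HSFA2, averaged 1161 ± 45.8 TPM after heat against 98.9 ± 21.4 TPM at 22 °C for ROF1 and 659.6 ± 81.8 TPM after heat against 4.27 ± 0.56 TPM at 22 °C for ROF2. HOP3, which links HSP70 to HSP90, had 331, 375 and 352 TPM in heated prmt5 libraries, against 2.45, 3.54 and 4.56 TPM at 22 °C. TMS1, an ER J-domain protein needed for pollen thermotolerance, had 219, 259 and 247 TPM in heated prmt5 libraries, against 2, 1.76 and 2.08 TPM at 22 °C. Groups lay far apart for both genes. HSA32, which keeps acquired thermotolerance over days, averaged 116 ± 16.1 TPM after heat against 2.64 ± 0.639 TPM at 22 °C (log2 change 5.01 ± 0.15 (SE; adjusted p = 1.4e-13)), and the transcriptional coactivator MBF1C averaged 264 ± 22.4 TPM after heat against 12 ± 3.01 TPM at 22 °C. GOLS1, a galactinol synthase gene under HSF control, had 393, 443 and 393 TPM in heated prmt5 libraries, against 3.27, 3.14 and 4.45 TPM at 22 °C, whereas GOLS2 (adjusted p = 0.78) and GOLS4 (adjusted p = 0.21) did not pass the test.

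**Figure D2:**
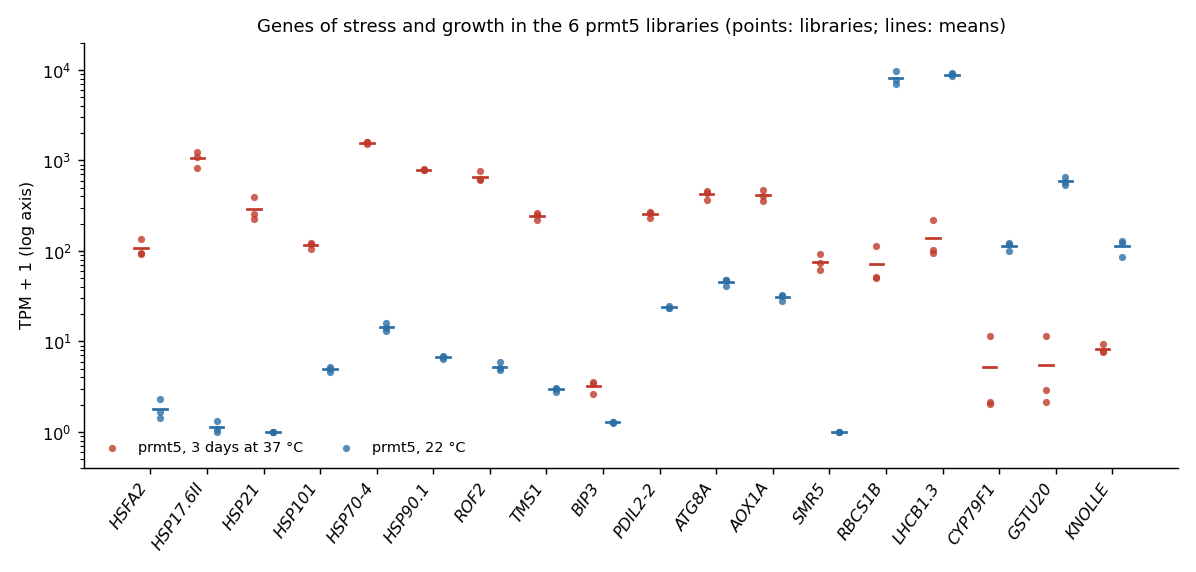
Level of 18 genes of stress and growth as TPM + 1 on a log axis, with one point per library and the mean as a line, for 3 heated prmt5 libraries (red, left) and 3 prmt5 libraries at 22 °C (blue, right). HSP17.6II stands at a mean of 1049.8 TPM after heat and 0.133 TPM at 22 °C, and RBCS1B, LHCB1.3, CYP79F1, GSTU20 and KNOLLE lie in the opposite order.

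Genes of protein folding in the ER rose in 25 of 27 cases (median 1.67), and their sum was 8684 ± 689 TPM after heat, against 2516 ± 249 TPM at 22 °C. The oxidoreductase PDIL2-3 had 583, 753 and 705 TPM in heated prmt5 libraries, against 57.2, 63.3 and 66.7 TPM at 22 °C, a log2 change of 3.42 ± 0.08 (SE; adjusted p = 1e-14). PDIL2-2, its relative, averaged 254 ± 21.3 TPM after heat against 22.8 ± 0.693 TPM at 22 °C. Groups were apart in every library for both. BIP2, the ER HSP70, had 937, 1024 and 1113 TPM in heated prmt5 libraries, against 219, 249 and 283 TPM at 22 °C. The lectin chaperone CNX1 had 1103, 1256 and 1263 TPM in heated prmt5 libraries, against 236, 255 and 277 TPM at 22 °C. BI1, which restrains cell death at the ER, averaged 689 ± 70.8 TPM after heat against 71.6 ± 3.84 TPM at 22 °C. Sensors and factors of the response rose as well. IRE1A, a sensor, averaged 59.1 ± 2.92 TPM after heat against 10.2 ± 0.94 TPM at 22 °C, and its target BZIP60 87.1 ± 6.26 TPM after heat against 29.6 ± 1.49 TPM at 22 °C. The membrane-bound factor BZIP28 averaged 116 ± 4.18 TPM after heat against 16.5 ± 1.61 TPM at 22 °C. BZIP17, of the same kind, averaged 55.8 ± 7.27 TPM after heat against 13.9 ± 2.21 TPM at 22 °C. CRT3, a calreticulin that folds immune receptors, fell to 26.3 ± 3.2 TPM after heat against 38.4 ± 2.81 TPM at 22 °C, and BAG7 to 160.4 ± 5.56 TPM after heat against 196 ± 28.1 TPM at 22 °C.

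Autophagy genes rose in 26 of 27 cases (median 1.91). ATG1A, for a kinase that starts the process, averaged 63.2 ± 7.09 TPM after heat against 13.3 ± 1.42 TPM at 22 °C. ATG1B averaged 33.8 ± 7.46 TPM after heat against 6.83 ± 1.69 TPM at 22 °C. ATG8A, which coats the growing autophagosome, had 369, 441 and 457 TPM in heated prmt5 libraries, against 46.4, 40 and 46.1 TPM at 22 °C. ATG8H had 187, 290.1 and 328 TPM in heated prmt5 libraries, against 40.3, 28.8 and 33.2 TPM at 22 °C. All heated libraries stood above all libraries at 22 °C for both genes. NBR1, the receptor that brings ubiquitinated aggregates to autophagosomes, averaged 416 ± 29.1 TPM after heat against 110.4 ± 6.56 TPM at 22 °C. ATG18A averaged 117 ± 7.23 TPM after heat against 13.4 ± 1.28 TPM at 22 °C. ATG10 did not pass the test (adjusted p = 0.42). Of the proteasome subunit genes, 52 of 54 passed the limit, and 43 rose, 3 fell and 6 did not pass the test, with a median of 0.94.

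Outside protein quality control, some of the strongest rises came from genes with little transcript at 22 °C. SRO5, which belongs to the RCD1-like family known from oxidative stress, had 287, 371 and 367 TPM in heated prmt5 libraries, against 1.46, 2.65 and 3.31 TPM at 22 °C, a change of 6.65 ± 0.35 (SE; adjusted p = 5.2e-11). SRO3, of the same family, had 562, 578 and 608 TPM in heated prmt5 libraries, against 1.48, 1.95 and 2.05 TPM at 22 °C. Both genes were within a few TPM of 0 in every library at 22 °C. SFH10, of a family of phospholipid transfer proteins, had 538, 378 and 431 TPM in heated prmt5 libraries, against 0.18, 0.27 and 0.18 TPM at 22 °C. Among nuclear protein-coding genes the largest gains in mean TPM were those of AGP2, AT1G21520, AT4G23680, AGP12, EMB1030, APX1, HSP17.6B-CI and NHL3. AGP2, an arabinogalactan protein gene, had 2861, 5042 and 4471 TPM in heated prmt5 libraries, against 45.8, 29.2 and 47 TPM at 22 °C. AT1G21520, named only by its identifier, had 2500.0, 2803 and 2589 TPM in heated prmt5 libraries, against 20.3, 11.5 and 14.3 TPM at 22 °C. All heated libraries stood far above those at 22 °C for both, and heated library 1 had the least AGP2. APX1, the cytosolic ascorbate peroxidase that removes hydrogen peroxide, had 2347, 2619 and 3059 TPM in heated prmt5 libraries, against 1004, 873 and 858 TPM at 22 °C. NHL3, known from the response to bacteria, had 1497, 1727 and 1677 TPM in heated prmt5 libraries, against 59.1, 43.2 and 45.4 TPM at 22 °C. CYSTM4, a gene for a small cysteine-rich membrane protein, had 713, 1177 and 958 TPM in heated prmt5 libraries, against 4.5, 4.4 and 2.75 TPM at 22 °C. Of the genes tested, 510 were listed at 0 in each prmt5 library at 22 °C and so passed the limit only through heat. Among these, 142 reached at least 5 TPM in each heated library, 61 of them transposable element genes and 38 nuclear protein-coding genes. In the other direction, 134 tested genes were listed at 0 in each heated library, and 35 of them reached at least 5 TPM in each library at 22 °C. Genes at 0 in 1 group that missed the limit are not counted, so the limit in part sets these shares.

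Photosynthesis genes had the largest loss of summed TPM of the lists. Each of the 58 listed genes for antenna proteins, photosystems, electron transport and carbon fixation fell, with a median log2 change of -3.73, and their sum was 14555, 11111 and 11178 TPM in heated prmt5 libraries, against 155062, 129056 and 122500.0 TPM at 22 °C. Heated library 1 had the highest sum of its group, and groups did not overlap. RBCS1B, a small subunit gene of Rubisco, had 113, 49.8 and 50.2 TPM in heated prmt5 libraries, against 9664, 7704 and 7057 TPM at 22 °C, a change of -6.92 ± 0.45 (SE; adjusted p = 6.4e-10). RBCS1A, the most abundant member, had 1500.5, 1481 and 1646 TPM in heated prmt5 libraries, against 21125, 18586 and 16705 TPM at 22 °C. PSAD1, which docks ferredoxin at photosystem I, had 37.4, 13.5 and 15 TPM in heated prmt5 libraries, against 1961, 1746 and 1720.0 TPM at 22 °C. LHCB1.3, an antenna gene of photosystem II, had 221, 100.3 and 94.8 TPM in heated prmt5 libraries, against 9248, 8462 and 8949 TPM at 22 °C. PSBR fell to 2522 ± 294 TPM after heat against 6377 ± 954 TPM at 22 °C.

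Of the chlorophyll synthesis genes, 13 of 14 passed the limit; 12 fell and 1 did not pass the test (median -3.05). GUN4, which activates magnesium chelatase and takes part in signalling from plastid to nucleus, had 3.39, 0 and 0 TPM in heated prmt5 libraries, against 122, 128 and 118 TPM at 22 °C, a change of -6.24 ± 0.45 (SE; adjusted p = 2.2e-09). CHLG, the chlorophyll synthase, averaged 1.45 ± 0.636 TPM after heat against 105 ± 9.31 TPM at 22 °C. HEMA1, at the entry of the pathway, did not pass the test, at 70.6 ± 12.3 TPM after heat against 66.5 ± 5.67 TPM at 22 °C (adjusted p = 0.69). Of the 9 chlorophyll breakdown genes, 4 rose and 5 fell. PPH, which removes phytol, had 196, 218 and 236 TPM in heated prmt5 libraries, against 24.8, 26.1 and 25.6 TPM at 22 °C. NYE1 and NYE2, which take out magnesium, averaged 26.8 ± 0.924 TPM after heat against 10.1 ± 0.233 TPM at 22 °C for NYE1 and 9.95 ± 1.44 TPM after heat against 0.863 ± 0.126 TPM at 22 °C for NYE2. CLH1, a chlorophyllase, fell to 4.75 ± 2.75 TPM after heat against 74 ± 17 TPM at 22 °C. Plastid ribosomal protein genes fell in 40 of 46 tested cases (median -2.32); 2 rose and 4 did not pass the test. Of 13 nitrogen assimilation genes that passed the limit, 3 rose, 7 fell and 3 did not pass the test. GLU1, the main ferredoxin-dependent glutamate synthase of leaves, averaged 9.25 ± 7.55 TPM after heat against 186 ± 21 TPM at 22 °C, and the plastid glutamine synthetase GS2 130.3 ± 28.7 TPM after heat against 1112 ± 122 TPM at 22 °C. Cytosolic GLN1;1 rose to 345 ± 61.3 TPM after heat against 129 ± 21.9 TPM at 22 °C and GDH2, a glutamate dehydrogenase, to 267 ± 45.3 TPM after heat against 70.1 ± 3.41 TPM at 22 °C.

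Some genes outside the photosynthesis list fell more steeply than any of its members, while others given here, such as GRP7, fell less than its median. GER3, a germin-like protein gene, had 15.7, 1.35 and 1.37 TPM in heated prmt5 libraries, against 2243, 2821 and 2393 TPM at 22 °C, a change of -9.09 ± 0.59 (SE; adjusted p = 6.4e-10). GER1, its relative, had 24.2, 2.28 and 0.92 TPM in heated prmt5 libraries, against 1543, 1657 and 1579 TPM at 22 °C. For both, heated library 1 held several times more than libraries 2 and 3 and still lay far under the libraries at 22 °C. ECS1, a cell wall protein gene, averaged 5.78 ± 6.59 TPM after heat against 831 ± 282 TPM at 22 °C. FBA5, a fructose-bisphosphate aldolase gene, averaged 0.0467 ± 0.0808 TPM after heat against 169 ± 32.9 TPM at 22 °C. CP12-2, which links enzymes of the Calvin cycle, averaged 9.43 ± 2.49 TPM after heat against 985 ± 305 TPM at 22 °C. THI1, for thiamine synthesis, averaged 319 ± 55.6 TPM after heat against 4065 ± 793 TPM at 22 °C. GRP7, a clock-controlled RNA-binding protein known as a methylation substrate of PRMT5, had 1702, 1332 and 1401 TPM in heated prmt5 libraries, against 5522, 6964 and 6966 TPM at 22 °C, a change of -2.13 ± 0.14 (SE; adjusted p = 1.1e-09).

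Aliphatic glucosinolates are sulfur compounds built from chain-elongated methionine that defend Brassicaceae against herbivores. All 16 listed genes of this pathway fell, with a median log2 change of -3.11, and 2 of the 16 passed the limit only through the libraries at 22 °C. Their summed level was 243, 126 and 135 TPM in heated prmt5 libraries, against 1271, 1422 and 1405 TPM at 22 °C. Heated library 1 held the most, and all 3 heated libraries lay below the 3 at 22 °C. The regulators MYB28 and MYB29 fell with the enzymes: MYB28 had 8.83, 4.53 and 3.84 TPM in heated prmt5 libraries, against 52.6, 65.5 and 83.5 TPM at 22 °C. MYB29 averaged 1.29 ± 1.5 TPM after heat against 14.8 ± 4.09 TPM at 22 °C. MAM1, which elongates methionine, had 13.1, 3.93 and 2.9 TPM in heated prmt5 libraries, against 172, 205 and 195 TPM at 22 °C (log2 change -4.89 ± 0.32 (SE; adjusted p = 7.9e-10)). CYP79F1, which makes the aldoxime, had 10.6, 1.14 and 1.02 TPM in heated prmt5 libraries, against 100.04, 122 and 117 TPM at 22 °C. CYP83A1, which oxidizes it, had 24.7, 7.03 and 6.23 TPM in heated prmt5 libraries, against 255, 236 and 233 TPM at 22 °C. SOT17, a sulfotransferase of the last core step, changed least of the list, at 28.5 ± 5.6 TPM after heat against 53 ± 2.68 TPM at 22 °C (log2 change -0.89 ± 0.15 (SE; adjusted p = 5.3e-05)). IPMI1, a subunit of the isomerase of chain elongation that was not on the list, had 0.95, 0.1 and 0.1 TPM in heated prmt5 libraries, against 112, 131 and 127 TPM at 22 °C. NSP1, which directs glucosinolate breakdown toward nitriles, averaged 2.35 ± 0.977 TPM after heat against 304 ± 56.6 TPM at 22 °C. The tryptophan branch did not move as one: of 13 of 14 listed genes that passed, 6 rose, 5 fell and 2 did not pass the test. MYB34 fell to 2.29 ± 1.61 TPM after heat against 24 ± 0.501 TPM at 22 °C and CYP79B3 to 8.82 ± 3.79 TPM after heat against 30.8 ± 2.72 TPM at 22 °C. MYB51 rose to 13.4 ± 2.98 TPM after heat against 6.57 ± 0.67 TPM at 22 °C and the camalexin gene PAD3 to 14.8 ± 8.35 TPM after heat against 3.49 ± 0.698 TPM at 22 °C.

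Of 20 of 24 flavonoid and anthocyanin genes that passed the limit, 19 fell and 1 did not pass the test, and 8 passed only through the libraries at 22 °C. LDOX, a late anthocyanin gene, had 0.61, 0.05 and 0 TPM in heated prmt5 libraries, against 68.5, 95.9 and 45.7 TPM at 22 °C. DFR, also late, averaged 0.133 ± 0.14 TPM after heat against 65.6 ± 22.4 TPM at 22 °C. CHS, at the entry, averaged 54.1 ± 7.74 TPM after heat against 239.7 ± 25.1 TPM at 22 °C. MYB12, an early regulator, did not pass the test (adjusted p = 0.64). Of 23 of 24 iron genes that passed the limit, 5 rose, 16 fell and 2 did not pass the test; 6 of them passed only through the libraries at 22 °C. NAS1, for nicotianamine, which carries iron in the phloem, averaged 0.99 ± 1.05 TPM after heat against 109 ± 9.2 TPM at 22 °C. NAS4 averaged 0.883 ± 0.567 TPM after heat against 85.2 ± 10.9 TPM at 22 °C. IRT1, the root iron transporter, fell to 3.33 ± 1.11 TPM after heat against 23 ± 17.2 TPM at 22 °C. Among those that rose, NRAMP3, which exports iron from the vacuole, averaged 62.5 ± 23.3 TPM after heat against 5.44 ± 0.381 TPM at 22 °C and the ferritin FER2 23.4 ± 0.864 TPM after heat against 1.24 ± 0.536 TPM at 22 °C.

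Jasmonate, made in plastids from linolenic acid, is the wound and defence hormone. Of 23 of 28 listed genes that passed the limit, 10 rose, 11 fell and 2 did not pass the test, near the background share upward. Of the 23, 2 passed the limit only through heat and 1 only through 22 °C. LOX2, the lipoxygenase of leaf plastids, had 30.6, 5.56 and 19.5 TPM in heated prmt5 libraries, against 387, 386 and 274 TPM at 22 °C, a change of -4.42 ± 0.42 (SE; adjusted p = 7.5e-08). AOS, the next enzyme, had 26.8, 12.3 and 15.1 TPM in heated prmt5 libraries, against 182, 134 and 124 TPM at 22 °C. OPR3, the peroxisomal reductase, averaged 5.94 ± 1.79 TPM after heat against 46.7 ± 1.77 TPM at 22 °C. All heated libraries lay under those at 22 °C for LOX2 and AOS, with the lowest LOX2 value in heated library 2. MYC2, the main transcription factor of the pathway, averaged 1.31 ± 1.02 TPM after heat against 11.5 ± 1.52 TPM at 22 °C. VSP2, one of its outputs, averaged 2.33 ± 2.23 TPM after heat against 11.7 ± 3.81 TPM at 22 °C. CORI3, another, averaged 17.6 ± 8.19 TPM after heat against 75 ± 34.1 TPM at 22 °C. Of the JAZ repressor genes, JAZ1 had 96.4, 76 and 99.4 TPM in heated prmt5 libraries, against 9.14, 10.9 and 9.22 TPM at 22 °C. JAZ5, JAZ6 and JAZ9 also passed the test upward, while JAZ10 fell to 2.71 ± 1.29 TPM after heat against 5.06 ± 0.432 TPM at 22 °C. The allene oxide cyclases split too, with AOC3 at 65 ± 26.1 TPM after heat against 4.48 ± 1.53 TPM at 22 °C and AOC4 at 5.86 ± 1.46 TPM after heat against 53.3 ± 2.02 TPM at 22 °C.

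Of 19 of 24 salicylate genes that passed the limit, 12 rose, 5 fell and 2 did not pass the test; 5 passed only through heat and 2 only through 22 °C. SARD1, the factor that activates salicylate synthesis, had 36.5, 38.5 and 38 TPM in heated prmt5 libraries, against 1.01, 0.78 and 1.04 TPM at 22 °C. Its target ICS1 averaged 10.4 ± 0.728 TPM after heat against 4.8 ± 0.27 TPM at 22 °C. WRKY46 averaged 40.1 ± 2.79 TPM after heat against 1.92 ± 0.265 TPM at 22 °C. WRKY18 averaged 77.6 ± 9.07 TPM after heat against 7.15 ± 0.367 TPM at 22 °C. FMO1, of systemic immunity, averaged 9.29 ± 4.52 TPM after heat against 0.363 ± 0.0351 TPM at 22 °C. PR5, an end product of the pathway, fell to 0.397 ± 0.125 TPM after heat against 27.3 ± 6.63 TPM at 22 °C. Abscisic acid genes gave 15 rises and 8 falls among 26 of 30. Of the 26, 2 passed the limit only through heat and 1 only through 22 °C. CYP707A4, which breaks the hormone down, had 107, 142 and 141 TPM in heated prmt5 libraries, against 0.83, 2.17 and 2.43 TPM at 22 °C, a change of 5.58 ± 0.27 (SE; adjusted p = 1.9e-11). CYP707A1 and CYP707A2, of the same function, averaged 0.397 ± 0.121 TPM after heat against 3.32 ± 0.848 TPM at 22 °C for CYP707A1 and 1.38 ± 0.575 TPM after heat against 5.45 ± 0.882 TPM at 22 °C for CYP707A2. CYP707A3 did not pass the test (adjusted p = 0.58). Of 7 cold and dehydration genes that passed the limit, 4 rose, 2 fell and 1 did not pass the test. The dehydrin gene COR47 rose to 658 ± 90.7 TPM after heat against 142 ± 23.5 TPM at 22 °C and ERD10 to 445 ± 55.5 TPM after heat against 98.7 ± 5.21 TPM at 22 °C. COR15A, for a plastid protein of the same cold regulon, fell to 4.89 ± 1.24 TPM after heat against 156 ± 122 TPM at 22 °C and COR15B to 0.513 ± 0.0252 TPM after heat against 87 ± 49.6 TPM at 22 °C.

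Of 29 genes of reactive oxygen scavenging and signalling, 13 rose, 12 fell and 4 did not pass the test. APX2, a cytosolic peroxidase gene known as an HSF target, had 47.1, 57.6 and 57.9 TPM in heated prmt5 libraries, against 0, 0 and 0.3 TPM at 22 °C. CSD1, the cytosolic superoxide dismutase, had 241, 261 and 280.4 TPM in heated prmt5 libraries, against 17.8, 19.1 and 26.5 TPM at 22 °C. Of the plastid members, FSD3 averaged 9.45 ± 2.13 TPM after heat against 113 ± 21.5 TPM at 22 °C and FSD2 12.5 ± 1.98 TPM after heat against 60.5 ± 14.9 TPM at 22 °C. The thylakoid peroxidase TAPX averaged 11.4 ± 0.893 TPM after heat against 73.7 ± 3.48 TPM at 22 °C. CAT2, the catalase of leaf peroxisomes, had 424, 341 and 406 TPM in heated prmt5 libraries, against 126, 89.9 and 84.1 TPM at 22 °C. CAT3, a clock-controlled catalase, had 501, 229.9 and 245 TPM in heated prmt5 libraries, against 1465, 1239 and 1233 TPM at 22 °C. Groups did not overlap for either catalase, with CAT2 higher and CAT3 lower after heat. ZAT12, a zinc finger gene that responds to peroxide, averaged 90.2 ± 0.952 TPM after heat against 1.92 ± 0.564 TPM at 22 °C. RBOHD, which makes superoxide at the plasma membrane, fell to 8.01 ± 1.17 TPM after heat against 21.9 ± 1.67 TPM at 22 °C. Of 11 of 13 genes tied to alternative respiration, 10 rose and 1 did not pass the test (median 2.71). AOX1A, the main alternative oxidase, had 356, 401 and 473 TPM in heated prmt5 libraries, against 31.9, 27.2 and 31 TPM at 22 °C. OM66, an outer membrane protein of mitochondria, averaged 69.3 ± 2.43 TPM after heat against 2.83 ± 0.448 TPM at 22 °C. NAC013, a regulator of this response, averaged 255 ± 15.8 TPM after heat against 15.9 ± 0.973 TPM at 22 °C. NAC017, which acts upstream as a membrane-bound factor, did not pass the test (adjusted p = 0.23).

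Of 16 low-oxygen genes, 4 rose, 7 fell and 5 did not pass the test. The haemoglobin HB1 fell to 2.42 ± 0.611 TPM after heat against 41.8 ± 0.301 TPM at 22 °C and ADH1, alcohol dehydrogenase, to 17 ± 3.58 TPM after heat against 51.6 ± 7.46 TPM at 22 °C. PDC2, pyruvate decarboxylase, rose to 284 ± 21.1 TPM after heat against 44.8 ± 7.19 TPM at 22 °C; SRO5, described above, is also on this list. Senescence genes rose in 9 of 12 tested cases, and 2 of the 12 passed the limit only through heat. SEN4, a wall enzyme, had 504, 756 and 755 TPM in heated prmt5 libraries, against 30.8, 24.1 and 26.5 TPM at 22 °C. SAG29, a sugar transporter, averaged 27.4 ± 6.37 TPM after heat against 0.973 ± 0.201 TPM at 22 °C, and the age regulator JUB1 37.7 ± 17.2 TPM after heat against 2.15 ± 0.892 TPM at 22 °C. WRKY53 fell to 1.02 ± 0.239 TPM after heat against 4.15 ± 0.788 TPM at 22 °C and SAG21 did not pass the test (adjusted p = 0.077). ORE1, which drives leaf senescence, averaged 7.96 ± 2.3 TPM after heat against 3.04 ± 1.04 TPM at 22 °C. Markers of sugar starvation fell in 8 of 15 tested cases and rose in 5, and 2 of the 15 passed the limit only through 22 °C. DIN11, a dark-induced gene, averaged 0.0133 ± 0.0231 TPM after heat against 4.9 ± 0.699 TPM at 22 °C. ASN1, for asparagine synthesis, averaged 0.38 ± 0.259 TPM after heat against 1.84 ± 0.555 TPM at 22 °C. DIN10, a raffinose synthase gene, rose to 104 ± 26.8 TPM after heat against 33.6 ± 2.97 TPM at 22 °C.

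Genes of cell division were lower after heat: of 29 of 30 listed for the cell cycle and mitosis, 24 fell and 5 did not pass the test, with a median of -1.88. Of the 29, 2 passed the limit only through 22 °C. CYCB1;2, a cyclin of the entry into mitosis, had 2.86, 1.87 and 1.72 TPM in heated prmt5 libraries, against 36.7, 58.8 and 57.5 TPM at 22 °C, a change of -4.03 ± 0.18 (SE; adjusted p = 6.2e-12). KNOLLE, the syntaxin of the cell plate, had 8.37, 6.88 and 6.6 TPM in heated prmt5 libraries, against 84.2, 129 and 121 TPM at 22 °C. HINKEL, a kinesin of cytokinesis, averaged 1.15 ± 0.235 TPM after heat against 26.2 ± 6.64 TPM at 22 °C. CDKA;1, the kinase present through the cycle, changed less, to 24.9 ± 2.34 TPM after heat against 39.7 ± 1.82 TPM at 22 °C, and CYCD3;3, of the start of the cycle, did not pass the test (adjusted p = 0.26). Of 15 replication genes tested, 6 rose, 6 fell and 3 did not pass the test. TSO2, a subunit of ribonucleotide reductase, had 11.3, 5.92 and 8.4 TPM in heated prmt5 libraries, against 147, 183 and 197 TPM at 22 °C. CDC45, of the replicative helicase, averaged 0.62 ± 0.101 TPM after heat against 6.68 ± 1.71 TPM at 22 °C. MCM3, a helicase subunit, averaged 31.3 ± 2.65 TPM after heat against 21.2 ± 4.55 TPM at 22 °C. MCM4 averaged 31.9 ± 2.68 TPM after heat against 16 ± 4.61 TPM at 22 °C. MCM5 stood apart at 1125 ± 153 TPM after heat against 21.7 ± 5.47 TPM at 22 °C. It lies 12.9 kb from the copy of mitochondrial DNA on chromosome 2, whose transcripts rose after heat too; whether reads from the copy enter its value was not tested. Without MCM5 the list summed to 325 TPM after heat, against 486 TPM at 22 °C.

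Of 20 genes of the DNA damage response and cell cycle inhibition, 9 rose, 5 fell and 6 did not pass the test. Of the 20, 2 passed the limit only through heat. SMR5, an inhibitor of cyclin-dependent kinases, had 72.8, 60 and 92.1 TPM in heated prmt5 libraries and was listed at 0 in all 3 prmt5 libraries at 22 °C. NAC044 and NAC085, known to halt the cycle at G2 also under heat, both rose. NAC044 had 132, 115 and 96 TPM in heated prmt5 libraries, against 4.39, 9.83 and 7.84 TPM at 22 °C. NAC085 averaged 20.9 ± 1.98 TPM after heat against 1.16 ± 0.363 TPM at 22 °C. SOG1, the factor that activates most of these genes after DNA damage, did not pass the test, at 8.9 ± 1.14 TPM after heat against 8.6 ± 2.28 TPM at 22 °C (adjusted p = 0.7). The inhibitor KRP2 fell to 1.2 ± 0.659 TPM after heat against 20.4 ± 2.75 TPM at 22 °C, and SMR1, another, to 30.4 ± 7.63 TPM after heat against 99.1 ± 20.8 TPM at 22 °C.

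Among marker genes of tissues, PDF1, of the outermost cell layer of the shoot, had 13.1, 6.74 and 7.63 TPM in heated prmt5 libraries, against 332, 509 and 484 TPM at 22 °C, a change of -5.47 ± 0.21 (SE; adjusted p = 1.6e-12). ATML1, the factor that sets this layer, averaged 9.77 ± 1.34 TPM after heat against 47.1 ± 3.53 TPM at 22 °C. Of 7 meristem and boundary markers that passed the limit, 1 rose, 5 fell and 1 did not pass the test. KNAT1 and STM, which keep the shoot meristem, averaged 1.25 ± 0.535 TPM after heat against 11 ± 2.76 TPM at 22 °C for KNAT1 and 0.493 ± 0.275 TPM after heat against 3.2 ± 1.1 TPM at 22 °C for STM. CLV1, the receptor that limits it, averaged 6.31 ± 1.2 TPM after heat against 23.6 ± 3.17 TPM at 22 °C. Of 10 stomatal lineage markers, 1 rose, 8 fell and 1 did not pass the test; 3 of the 10 passed the limit only through 22 °C. STOMAGEN, the mesophyll peptide that promotes stomata, had 0.97, 0.14 and 0.71 TPM in heated prmt5 libraries, against 32.6, 35.6 and 25.4 TPM at 22 °C. SPCH, which starts the lineage, averaged 1.62 ± 0.183 TPM after heat against 13.5 ± 2.79 TPM at 22 °C. FAMA, which ends it, rose to 19.6 ± 2.52 TPM after heat against 13.4 ± 1.26 TPM at 22 °C (log2 change 0.51 ± 0.13 (SE; adjusted p = 0.002)). Root markers fell in 11 of 14 tested cases and none rose; 7 of the 14 passed only through 22 °C. RHS19, a root hair gene, averaged 0.167 ± 0.0321 TPM after heat against 13.7 ± 5.65 TPM at 22 °C. PRP3 averaged 0.363 ± 0.378 TPM after heat against 13.7 ± 6.22 TPM at 22 °C, whereas SHR, of the stele, did not pass the test (adjusted p = 0.47). Vascular markers rose in 7 of 11 cases and fell in 3. XCP1, a protease of dying vessel cells, rose to 71.4 ± 11.9 TPM after heat against 19.2 ± 4.03 TPM at 22 °C and XCP2, its relative, to 182 ± 28.6 TPM after heat against 56.5 ± 9.03 TPM at 22 °C. The secondary wall genes CESA4, CESA7 and CESA8 rose by 1.25, 1.21 and 1.01 on the log2 scale. SUC2, the sucrose loader of phloem companion cells, fell to 13.2 ± 2.09 TPM after heat against 48.5 ± 5.33 TPM at 22 °C.

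Of 22 genes of growth in warmth and light, 10 rose, 10 fell and 2 did not pass the test. Of the 22, 3 passed the limit only through heat and 3 only through 22 °C. PIF4, the factor of growth in warmth, had 3.9, 2.16 and 3.27 TPM in heated prmt5 libraries, against 5.41, 4.44 and 5.86 TPM at 22 °C, a change of -0.62 ± 0.23 (SE; adjusted p = 0.02). PIF5 averaged 4.06 ± 2.51 TPM after heat against 7.64 ± 0.706 TPM at 22 °C. PIF7, of the same family, rose to 19.8 ± 2.71 TPM after heat against 6.98 ± 2.38 TPM at 22 °C. Of the wall-loosening expansins, EXPA8 averaged 0.527 ± 0.22 TPM after heat against 36.7 ± 8.63 TPM at 22 °C. EXPA11 averaged 1.8 ± 0.309 TPM after heat against 30.4 ± 8.54 TPM at 22 °C. Clock genes rose in 18 of 25 cases, 6 of which passed the limit only through heat. LNK1, a morning gene, had 35.3, 33.2 and 35.6 TPM in heated prmt5 libraries, against 3.51, 3.75 and 3.02 TPM at 22 °C. The morning genes PRR9 and LHY averaged 6.37 ± 0.746 TPM after heat against 0.333 ± 0.101 TPM at 22 °C for PRR9 and 4.37 ± 1.23 TPM after heat against 0.347 ± 0.0451 TPM at 22 °C for LHY. TOC1, an evening gene, fell to 27.8 ± 5.8 TPM after heat against 45.9 ± 5.81 TPM at 22 °C and PRR3 to 8.59 ± 1.07 TPM after heat against 27.3 ± 2.03 TPM at 22 °C. GI, which also peaks late in the day, rose to 39.4 ± 3.07 TPM after heat against 7.05 ± 1.37 TPM at 22 °C and LUX, of the evening, to 101 ± 2.51 TPM after heat against 24.2 ± 0.224 TPM at 22 °C. ELF3, a temperature sensor, did not pass the test (adjusted p = 0.69). With no harvest hour in the labels, its part in these levels was not tested. Of 23 flowering time regulators that passed the limit, 3 of them only through 22 °C, 7 rose, 12 fell and 4 did not pass the test. The floral repressor SVP fell to 9.9 ± 2.05 TPM after heat against 43.1 ± 0.578 TPM at 22 °C, FLM to 17.8 ± 0.814 TPM after heat against 48.8 ± 6.78 TPM at 22 °C and FLC to 2.97 ± 0.655 TPM after heat against 7.1 ± 1.31 TPM at 22 °C. SOC1, an activator of flowering, fell to 1.02 ± 0.396 TPM after heat against 6.78 ± 0.539 TPM at 22 °C.

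PRMT5 acts on splicing proteins, and their genes were measured as well. Splicing factors of the SR family rose in 14 of 20 cases. SR30 had 519.5, 527 and 567 TPM in heated prmt5 libraries, against 23.5, 28.2 and 33.8 TPM at 22 °C, a change of 4.20 ± 0.11 (SE; adjusted p = 1.7e-14). SCL33 averaged 99.7 ± 6.22 TPM after heat against 17.1 ± 5.02 TPM at 22 °C. SR45 did not pass the test (adjusted p = 0.14) and RS40 fell to 24.7 ± 1.33 TPM after heat against 52.4 ± 9.16 TPM at 22 °C. TPM per gene hold no splice forms, so whether these transcripts code for full proteins was not tested. Of 26 genes for Sm, LSm and glycine-rich RNA-binding proteins, 19 rose and 7 fell. Sm core proteins carry the symmetric arginine marks; SMD3A averaged 494 ± 20.1 TPM after heat against 88.6 ± 9.69 TPM at 22 °C and SMD1A 204 ± 11.3 TPM after heat against 61.1 ± 6.14 TPM at 22 °C. An LSM gene, LSM5, fell to 91.6 ± 8.55 TPM after heat against 172 ± 2.34 TPM at 22 °C. Of the 9 arginine methyltransferase genes, PRMT5 included, 7 rose and 2 fell. PRMT3, of ribosome assembly, averaged 40.7 ± 0.524 TPM after heat against 23.6 ± 5.18 TPM at 22 °C, PRMT10 66.6 ± 3.78 TPM after heat against 36.5 ± 6.86 TPM at 22 °C and PRMT4A 3.41 ± 0.913 TPM after heat against 20.1 ± 3.38 TPM at 22 °C. Under quantile scaling, 4 members rose in place of 7.

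Transcripts of mitochondrial DNA and of transposable elements took a larger share of all TPM after heat. Mitochondrion-encoded genes held 2.58%, 2.28% and 2.13% of all TPM in heated prmt5 libraries, against 0.00667%, 0.0116% and 0.0109% at 22 °C. Genes of the chromosome 2 copy of mitochondrial DNA held 1.32%, 0.895% and 0.901% of all TPM in heated prmt5 libraries, against 0.00488%, 0.00533% and 0.00652% at 22 °C. NAD9, a subunit of complex I, had 565, 400.3 and 435 TPM in heated prmt5 libraries and was listed at 0 in all 3 prmt5 libraries at 22 °C. COX2, of the cytochrome oxidase, had 817, 583 and 539 TPM in heated prmt5 libraries, against 0.82, 1 and 0.99 TPM at 22 °C. Reads from the mitochondrion and from its nuclear copy cannot be told apart where the sequences are the same. Transposable element genes held 0.626%, 0.539% and 0.562% of all TPM in heated prmt5 libraries, against 0.0368%, 0.0442% and 0.0505% at 22 °C. AT1G48710, one of them, had 326, 355 and 317 TPM in heated prmt5 libraries and was listed at 0 in all 3 prmt5 libraries at 22 °C. Most of these genes reached the limit only through heat, 188 of 254. Genes of nuclear ribosomal RNA held 2.19%, 2.28% and 2.26% of all TPM in heated prmt5 libraries, against 0.325%, 0.807% and 0.395% at 22 °C. Plastid-encoded genes held 0.0702%, 0.0419% and 0.0474% of all TPM in heated prmt5 libraries, against 0.0708%, 0.128% and 0.11% at 22 °C, with the highest heated library below the lowest at 22 °C by less than the spread at 22 °C. Per the labels' protocols, mRNA was enriched with oligo(dT) before fragmentation, so transcripts without poly(A) tails are seen here only as far as they pass that step.

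**Figure D3:**
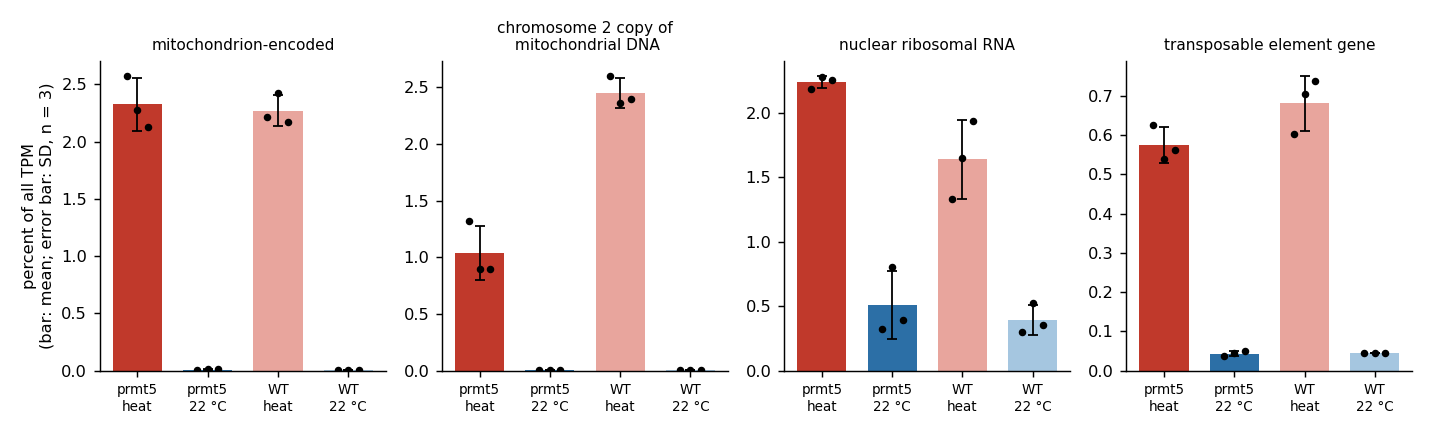
Percent of all TPM held by 4 classes of transcripts in prmt5 and WT, heated and at 22 °C, with bars for the mean of 3 libraries, error bars for the SD and points for libraries; each panel has its own linear axis from 0. Mitochondrion-encoded genes held 2.13% to 2.58% in heated prmt5 libraries and at most 0.0116% in prmt5 libraries at 22 °C.

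The same heat moved 16015 of the 21006 genes in WT (76.2%), 10539 upward (50.2%) and 5476 downward (26.1%), with a median log2 change of 0.36. Of these calls 65.8% were upward with TPM as deposited, 49.6% after median-ratio scaling and 51.1% after quantile scaling. By more than 2-fold, 25.7% rose and 13.8% fell in WT, and its groups did not overlap for 79.5% of the genes. The difference of the responses, prmt5 minus WT, was tested as the interaction term of the same fit. It passed for 11037 genes (52.5%), with 4055 higher (19.3%) and 6982 lower (33.2%), and by more than 2-fold for 6.73% and 17.4%. That split depends on the scaling of the libraries: 36.7% of the calls were higher with TPM as deposited, 53.3% after median-ratio scaling and 51.1% after quantile scaling, and the median of all genes, -0.18, moved by 0.22 and 0.20. Counts of genes whose responses differ are therefore given below under each of the 3 scalings, in that order. Over all 21006 genes these counts were 4055, 6119 and 5528 higher and 6982, 5371 and 5289 lower, against which the counts of each list are to be read. Differences of single genes, and their directions in WT, are given with TPM as deposited alone. Where such a value lies near the threshold, it may not hold under another scaling, which is not shown here. With TPM as deposited, genes lower in both genotypes numbered 4917, which is 64.2% of the genes that fell in prmt5 and 89.8% of those that fell in WT. Under the 3 scalings 4917, 6601 and 6427 genes were lower in both. By the interaction test the fall was larger in prmt5 for 2689, 2938 and 2620 of these, and smaller for 187, 480 and 470. Genes higher in both numbered 8491 with TPM as deposited (85.9% of the rises in prmt5 and 80.6% of those in WT). Under the 3 scalings 8491, 6764 and 6914 genes were higher in both, of which 2759, 3129 and 2668 rose further in prmt5 and 1090, 551 and 773 less. Opposite directions, with the difference past the threshold, were found for 162, 501 and 417 genes that rose in prmt5 and fell in WT and for 676, 326 and 352 that fell in prmt5 and rose in WT, so which of these kinds is more frequent turns with the scaling.

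**Figure D4:**
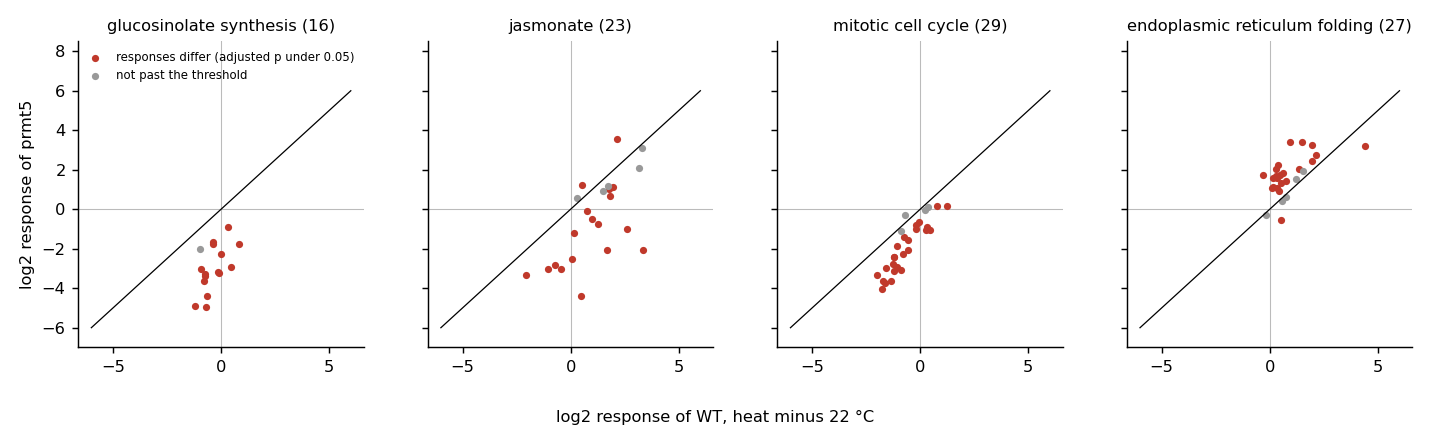
Log2 change after heat in prmt5 (y axis) against that in WT (x axis) for the tested members of 4 lists, one point per gene, red where the interaction passes the adjusted p of 0.05 and grey where it does not. On the diagonal the changes are equal; 15 of 16 glucosinolate genes are red and below it, and 20 of 27 ER folding genes are red and above it.

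For most small heat shock proteins a difference between the genotypes was not past the threshold: 6, 3 and 6 of 19 had a lower response in prmt5 and 1, 2 and 1 a higher one with TPM as deposited, median-ratio scaling and quantile scaling. HSP17.6II changed by 9.85 in prmt5 and 9.91 in WT (difference -0.07 ± 0.30, adjusted p = 0.87), and HSP17.4 by 8.74 and 8.76 (adjusted p = 0.96). For HSP21, heated prmt5 libraries had 224, 255 and 391 TPM, against 446, 628 and 554 TPM in heated WT libraries, and the responses differed by -0.93 ± 0.33 (adjusted p = 0.027). HSP22.0 differed the same way (-1.48 ± 0.29, adjusted p = 0.0006). HSFA2 rose further in prmt5, at 106 ± 24.9 TPM in heated prmt5 against 0.8 ± 0.483 TPM at 22 °C, and 55.1 ± 8.27 TPM in heated WT against 1.42 ± 0.342 TPM at 22 °C (difference 1.37 ± 0.30, adjusted p = 0.0014). Of the 27 ER folding genes, 20, 22 and 20 had a higher response in prmt5 under the same 3 scalings, while 2, 2 and 2 had a lower one. PDIL1-1, a protein disulfide isomerase, averaged 545 ± 50.9 TPM in heated prmt5 against 161 ± 17 TPM at 22 °C, and 123 ± 7.24 TPM in heated WT against 154 ± 10.5 TPM at 22 °C, a difference of 2.07 ± 0.12 (adjusted p = 3.6e-08). CNX1, the lectin chaperone, averaged 1207 ± 90.6 TPM in heated prmt5 against 256 ± 20.7 TPM at 22 °C, and 294 ± 22.2 TPM in heated WT against 227 ± 8.43 TPM at 22 °C. Neither reached a 2-fold change in WT. NAC103, a factor that relays the ER signal, differed the other way (-1.18 ± 0.26, adjusted p = 0.0013). Autophagy genes were higher in 20, 22 and 20 of 27 cases under the same scalings and lower in none; ATG8E averaged 104 ± 17.5 TPM in heated prmt5 against 33.9 ± 3.19 TPM at 22 °C, and 36 ± 4.35 TPM in heated WT against 42.4 ± 1.15 TPM at 22 °C. Proteasome genes were higher in 33, 40 and 28 of 52.

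**Figure D5:**
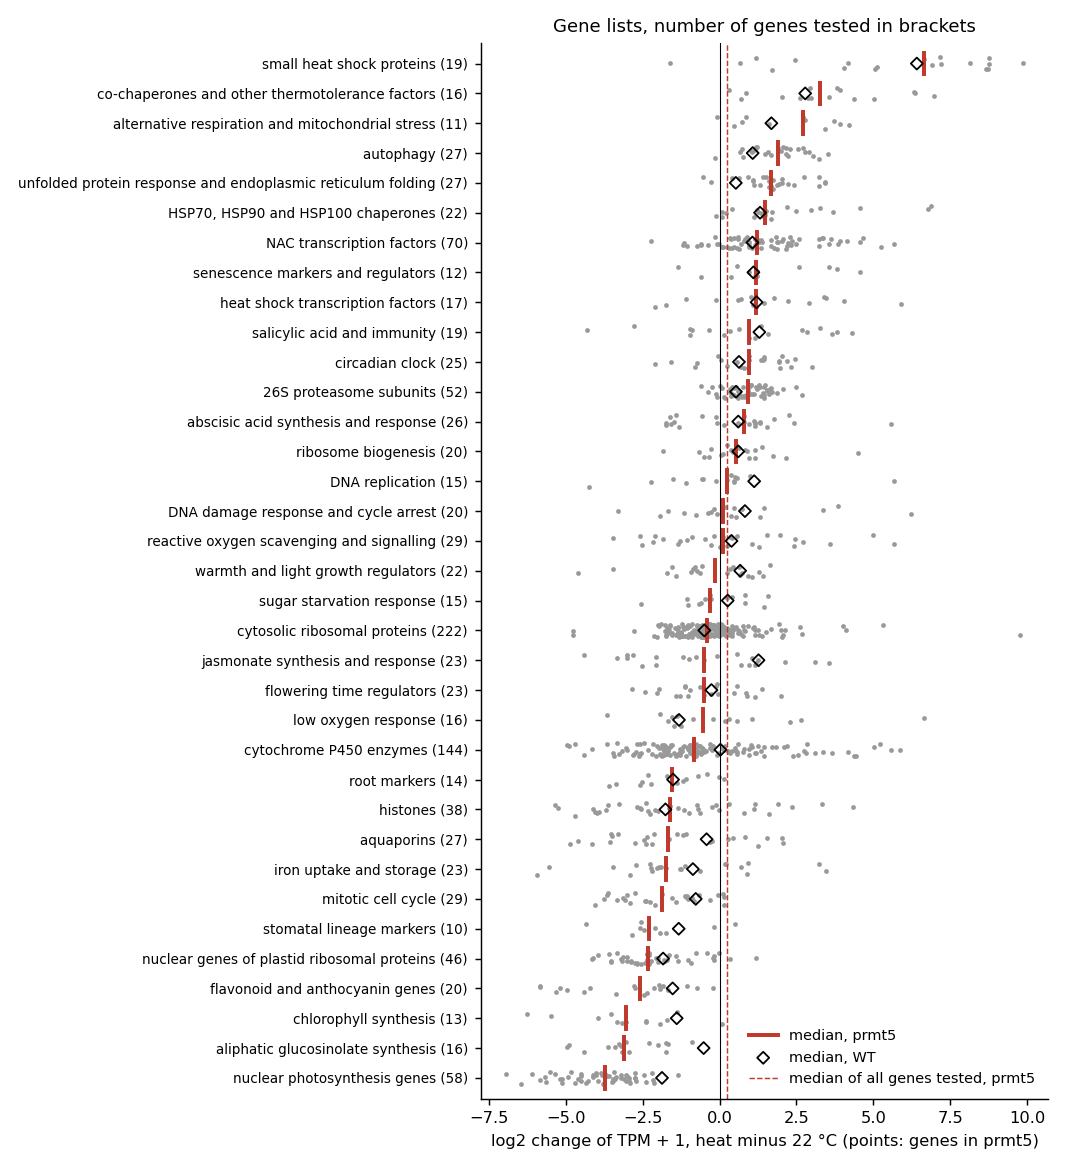
Log2 change after heat of each tested member of 35 lists in prmt5 (grey points), with the list median in prmt5 as a red bar and that in WT as an open diamond; the dashed line is the median of all genes tested in prmt5, 0.23. The 16 aliphatic glucosinolate genes have a median of -3.11 in prmt5 and -0.52 in WT, and the 27 ER folding genes 1.67 in prmt5 and 0.53 in WT.

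Glucosinolate genes showed the widest gap among the lists. Their median log2 change was -3.11 in prmt5 and -0.52 in WT, and 15, 15 and 15 of 16 had a lower response in prmt5 under the 3 scalings, with none higher. CYP79F1 averaged 4.24 ± 5.47 TPM in heated prmt5 against 113 ± 11.7 TPM at 22 °C, and 44.2 ± 12.4 TPM in heated WT against 70.5 ± 8.11 TPM at 22 °C. MYB29 averaged 1.29 ± 1.5 TPM in heated prmt5 against 14.8 ± 4.09 TPM at 22 °C, and 25.1 ± 8.64 TPM in heated WT against 17.5 ± 2.01 TPM at 22 °C, a difference of -3.39 ± 0.48 (adjusted p = 3.9e-05). The 16 genes summed to 168 ± 65.1 TPM after heat, against 1366 ± 82.6 TPM at 22 °C in prmt5, and 773 ± 131 TPM after heat, against 1095 ± 125 TPM at 22 °C in WT. IPMI1 averaged 0.383 ± 0.491 TPM in heated prmt5 against 123 ± 10.1 TPM at 22 °C, and 30.6 ± 10.1 TPM in heated WT against 76.9 ± 14.8 TPM at 22 °C, a difference of -5.21 ± 0.36 (adjusted p = 1.1e-07). Of the 58 photosynthesis genes, 49, 44 and 50 had a lower response in prmt5 under the 3 scalings. RBCS1A did not differ past the threshold (0.18 ± 0.35, adjusted p = 0.7), while LHCB3 averaged 41.8 ± 27 TPM in heated prmt5 against 618 ± 86.4 TPM at 22 °C, and 387 ± 154 TPM in heated WT against 255 ± 22.5 TPM at 22 °C, a fall in prmt5 and no change past the threshold in WT (adjusted p = 0.33). LHCB2.2, which fell in prmt5 and rose in WT (adjusted p = 0.025 for WT in limma's test), averaged 16.2 ± 10.1 TPM in heated prmt5 against 119 ± 6.48 TPM at 22 °C, and 120.2 ± 58.5 TPM in heated WT against 39.8 ± 5.97 TPM at 22 °C. Heated WT libraries 1, 2 and 3 had 187.7, 84.5 and 88.3 TPM of it. Library 1 of that group also had the most photosynthesis transcripts, with list sums of 39794, 24405 and 19798 TPM in the same order. Chlorophyll synthesis was lower in 12, 11 and 11 of 13 cases; CHLH, a subunit of magnesium chelatase, averaged 53.7 ± 17.2 TPM in heated prmt5 against 201 ± 13.6 TPM at 22 °C, and 174 ± 46.7 TPM in heated WT against 173 ± 7.97 TPM at 22 °C.

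VSP2 and CORI3 fell in prmt5 and rose in WT, and LOX2 fell in prmt5 and did not pass the test in WT (adjusted p = 0.31). VSP2 averaged 2.33 ± 2.23 TPM in heated prmt5 against 11.7 ± 3.81 TPM at 22 °C, and 83.8 ± 37.6 TPM in heated WT against 7.41 ± 3.92 TPM at 22 °C, the lowest interaction of the named genes at -5.42 ± 0.56 (adjusted p = 3.1e-06). LOX2 averaged 18.5 ± 12.5 TPM in heated prmt5 against 349 ± 65.1 TPM at 22 °C, and 342 ± 66.8 TPM in heated WT against 248 ± 71.9 TPM at 22 °C. CORI3 averaged 17.6 ± 8.19 TPM in heated prmt5 against 75 ± 34.1 TPM at 22 °C, and 226 ± 67.7 TPM in heated WT against 70.4 ± 19.5 TPM at 22 °C. Of 23 tested members, 16, 14 and 14 had a lower response in prmt5 under the 3 scalings and 2, 2 and 3 a higher one; the median was -0.50 in prmt5 and 1.27 in WT. PIF4 and PIF5 fell in prmt5 and rose in WT. PIF4 averaged 3.11 ± 0.881 TPM in heated prmt5 against 5.24 ± 0.726 TPM at 22 °C, and 13.1 ± 3.69 TPM in heated WT against 0.81 ± 0.113 TPM at 22 °C (difference -3.55 ± 0.32, adjusted p = 1.1e-06). PIF5 averaged 4.06 ± 2.51 TPM in heated prmt5 against 7.64 ± 0.706 TPM at 22 °C, and 29.2 ± 4.33 TPM in heated WT against 6.41 ± 0.696 TPM at 22 °C (difference -2.90 ± 0.40, adjusted p = 2.8e-05). HY5, the light factor that opposes PIFs, showed the reverse, at 26.9 ± 2.5 TPM in heated prmt5 against 19.4 ± 2.16 TPM at 22 °C, and 19.1 ± 3.86 TPM in heated WT against 34.8 ± 3.45 TPM at 22 °C. Its relative HYH averaged 30.2 ± 1.84 TPM in heated prmt5 against 19.2 ± 1.77 TPM at 22 °C, and 21.9 ± 1.52 TPM in heated WT against 62.2 ± 1.07 TPM at 22 °C. CAT3 averaged 325 ± 152 TPM in heated prmt5 against 1312 ± 132 TPM at 22 °C, and 1526 ± 161 TPM in heated WT against 744 ± 71.9 TPM at 22 °C, a difference of -3.13 ± 0.32 (adjusted p = 2.6e-06). PAP1, the anthocyanin regulator, averaged 3.05 ± 2.28 TPM in heated prmt5 against 18.1 ± 3.58 TPM at 22 °C, and 28.6 ± 5.3 TPM in heated WT against 8.56 ± 1.6 TPM at 22 °C. Division genes had a lower response in prmt5 in 25, 23 and 22 of 29 cases and replication genes in 14, 13 and 14 of 15 under the 3 scalings. MCM2 did not pass the test in prmt5 and rose in WT (25.4 ± 1.78 TPM in heated prmt5 against 21.8 ± 6.27 TPM at 22 °C, and 65.7 ± 8.68 TPM in heated WT against 23.3 ± 0.879 TPM at 22 °C, difference -1.19 ± 0.22, adjusted p = 0.00034). GRP7 averaged 1478 ± 197 TPM in heated prmt5 against 6484 ± 833 TPM at 22 °C, and 2589 ± 504 TPM in heated WT against 2801 ± 184 TPM at 22 °C; the difference between the genotypes at 22 °C was not tested here.

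Several further genes had a higher response in prmt5 than in WT. ERF114, an ethylene-response-type factor, had 81, 141 and 124 TPM in heated prmt5 libraries, against 0.26, 0.23 and 0.27 TPM at 22 °C, and averaged 6.58 ± 2.14 TPM in heated WT and 0.297 ± 0.0839 TPM in WT at 22 °C, a difference of 3.99 ± 0.35 (adjusted p = 9.2e-07). ERF115, its relative, known from stem cell replacement after damage, averaged 20.7 ± 1.3 TPM in heated prmt5 against 0.0367 ± 0.0635 TPM at 22 °C, and 1.46 ± 0.574 TPM in heated WT against 0.1 ± 0.125 TPM at 22 °C. AT1G21520 averaged 2631 ± 156 TPM in heated prmt5 against 15.4 ± 4.5 TPM at 22 °C, and 121 ± 23 TPM in heated WT against 15 ± 1.36 TPM at 22 °C. RABA1e, a small GTPase of vesicle traffic, averaged 47.7 ± 4.83 TPM in heated prmt5 against 3.45 ± 1.13 TPM at 22 °C, and 2.94 ± 1.42 TPM in heated WT against 4.5 ± 2.19 TPM at 22 °C, a difference of 3.94 ± 0.48 (adjusted p = 1.1e-05). SRO5 averaged 342 ± 47.1 TPM in heated prmt5 against 2.47 ± 0.938 TPM at 22 °C, and 46.3 ± 14.8 TPM in heated WT against 4.25 ± 2.65 TPM at 22 °C. AOX1A averaged 410.3 ± 58.7 TPM in heated prmt5 against 30.1 ± 2.48 TPM at 22 °C, and 129 ± 2.93 TPM in heated WT against 21.5 ± 1.47 TPM at 22 °C. SMR5 averaged 74.9 ± 16.2 TPM in heated prmt5 against 0 TPM at 22 °C, and 22.1 ± 4.39 TPM in heated WT against 0 TPM at 22 °C, while NAC044 rose less in prmt5, at 114 ± 18.1 TPM in heated prmt5 against 7.35 ± 2.75 TPM at 22 °C, and 105 ± 3.9 TPM in heated WT against 1.12 ± 0.356 TPM at 22 °C (difference -1.83 ± 0.27, adjusted p = 6.4e-05). PDC2 averaged 284 ± 21.1 TPM in heated prmt5 against 44.8 ± 7.19 TPM at 22 °C, and 96.1 ± 14.3 TPM in heated WT against 52.2 ± 8.28 TPM at 22 °C, and 5, 8 and 8 of the 16 low-oxygen genes on its list had a higher response in prmt5 under the 3 scalings, with none lower. The summed list had 691, 699 and 233 TPM in the WT libraries at 22 °C, and the third stands apart. Without it 12 genes had a higher response in prmt5. Without prmt5 heat library 3, prmt5 22 °C library 1, WT heat library 1 or WT 22 °C library 1 or 2 the count was 3.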

How the data were processed

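The authors deposited 1 table of TPM per gene for 18 libraries; all of its columns of values matched a sample. Per the submitters' processing notes, RSEM and the genome build TAIR10 were used; the aligner, the settings and the read depth are not given in the sources used here, so depth is unknown and no counting interval is given. Per the labels' protocols, total RNA was enriched for mRNA with oligo(dT) and made into TruSeq libraries.

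TPM were turned into log2(TPM + 1) and fitted in limma 3.58.1 (R 4.3.3) with 1 mean for each of 6 groups (prmt5 and WT, each after heat, after 24 hours of recovery and at 22 °C), a variance trend and 12 residual degrees of freedom. Genes with a mean of at least 1 TPM over the 6 prmt5 libraries after heat and at 22 °C were tested, and p-values were adjusted over all of them by Benjamini-Hochberg, with a threshold of 0.05. The fit was tested on simulated data in which few genes changed and libraries varied independently. That simulation could not test the scaling of libraries in which most genes change, as here. Tables and figures were made in Python 3.11.15. Means are given with the SD and log2 changes with the SE (n = 3 libraries).

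Genes named in the text are PRMT5, the 12 highest and 12 lowest changes among genes with a symbol that reach 5 TPM in the higher group and whose groups do not overlap, the 8 largest gains and losses of TPM among nuclear protein-coding genes, the 8 highest and 8 lowest interactions past the threshold among genes with a symbol that reach 5 TPM in 1 of the 4 groups and do not overlap in at least 1 response, and, within a list, at most 4 members that changed most past the threshold plus those whose role is needed. The 53 lists (39 by gene name, 14 families by description) and the genes described were chosen with earlier results of these data known. Promoter windows came from the RefSeq annotation of TAIR10.1 by gene identifier. Genes with near-identical copies may share reads. Alternatives were other pseudocounts, filters, scalings, fits, the replicate number as a block, and each library left out in turn; that with nuclear protein-coding genes alone and that without genes listed at 0 in 1 library were chosen after seeing the data.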

Additional observations from a re-analysis of the deposited data

Results flagged for a closer look

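The 18 results here were picked out because the heat response of prmt5 differs from that of WT by the interaction test, each with values on the log2(TPM + 1) scale. Most were picked for the size of that difference. ASN1 and SAUR23 were added as list members whose changes in prmt5 and in WT both passed the test, in opposite directions. That rule did not ask whether single libraries overlapped. With 3 libraries in a group, no search for single stray libraries was made.

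On the side of a higher response in prmt5, GAUT14, a galacturonosyltransferase of pectin synthesis, had 18.9, 22.7 and 21.9 TPM in heated prmt5 libraries, against 2.95, 4.92 and 6.03 TPM at 22 °C; it was listed at 0 in all 3 heated WT libraries, against 3.98, 5.66 and 3.53 TPM at 22 °C in WT, and the fitted difference was 4.42 ± 0.57. U2.5, a gene for the small nuclear RNA U2, had 7.05, 20.5 and 39.3 TPM in heated prmt5 libraries, against 16.4, 12.4 and 13 TPM at 22 °C and was likewise listed at 0 in all 3 heated WT libraries (difference 4.04 ± 0.65). A 0 in this table can be a failed estimate, and near-identical U2 genes share reads, so both values are uncertain. ERF114 averaged 116 ± 31.2 TPM in heated prmt5 against 0.253 ± 0.0208 TPM at 22 °C, and 6.58 ± 2.14 TPM in heated WT against 0.297 ± 0.0839 TPM at 22 °C, a difference of 3.99 ± 0.35 (SE; adjusted p = 9.2e-07). RABA1e averaged 47.7 ± 4.83 TPM in heated prmt5 against 3.45 ± 1.13 TPM at 22 °C, and 2.94 ± 1.42 TPM in heated WT against 4.5 ± 2.19 TPM at 22 °C, a difference of 3.94 ± 0.48 (SE; adjusted p = 1.1e-05). CYP89A7, a cytochrome P450 gene, averaged 49.5 ± 5.98 TPM in heated prmt5 against 0.37 ± 0.0265 TPM at 22 °C, and 2.47 ± 0.583 TPM in heated WT against 0.317 ± 0.282 TPM at 22 °C, a difference of 3.79 ± 0.23 (SE; adjusted p = 3.6e-08). SRO5 averaged 342 ± 47.1 TPM in heated prmt5 against 2.47 ± 0.938 TPM at 22 °C, and 46.3 ± 14.8 TPM in heated WT against 4.25 ± 2.65 TPM at 22 °C, a difference of 3.37 ± 0.49 (SE; adjusted p = 5.2e-05). LTI30, a dehydrin, averaged 141 ± 24 TPM in heated prmt5 against 20.9 ± 4.1 TPM at 22 °C, and 15 ± 5.11 TPM in heated WT against 26.5 ± 14.7 TPM at 22 °C, a difference of 3.34 ± 0.52 (SE; adjusted p = 8.2e-05). scpl48, a serine carboxypeptidase-like gene, averaged 1223 ± 383 TPM in heated prmt5 against 19.7 ± 2.41 TPM at 22 °C, and 168 ± 47 TPM in heated WT against 27.8 ± 4.69 TPM at 22 °C, a difference of 3.31 ± 0.32 (SE; adjusted p = 1.6e-06).

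On the side of a lower response in prmt5, VSP2 averaged 2.33 ± 2.23 TPM in heated prmt5 against 11.7 ± 3.81 TPM at 22 °C, and 83.8 ± 37.6 TPM in heated WT against 7.41 ± 3.92 TPM at 22 °C, a difference of -5.42 ± 0.56 (SE; adjusted p = 3.1e-06). IPMI1 averaged 0.383 ± 0.491 TPM in heated prmt5 against 123 ± 10.1 TPM at 22 °C, and 30.6 ± 10.1 TPM in heated WT against 76.9 ± 14.8 TPM at 22 °C, a difference of -5.21 ± 0.36 (SE; adjusted p = 1.1e-07). LOX2 averaged 18.5 ± 12.5 TPM in heated prmt5 against 349 ± 65.1 TPM at 22 °C, and 342 ± 66.8 TPM in heated WT against 248 ± 71.9 TPM at 22 °C, a difference of -4.90 ± 0.60 (SE; adjusted p = 1.2e-05). BGLU18, a glucosidase that frees abscisic acid from its glucose ester, averaged 1.67 ± 1.23 TPM in heated prmt5 against 162 ± 14.6 TPM at 22 °C, and 49.8 ± 16.5 TPM in heated WT against 108 ± 14.5 TPM at 22 °C, a difference of -4.87 ± 0.54 (SE; adjusted p = 4.9e-06). AT14A is listed under 2 identifiers, AT3G28290 and AT3G28300, with identical values in every library, so they count as 1 measurement: 0.18 ± 0.09 TPM in heated prmt5 against 34.2 ± 4.65 TPM at 22 °C, and 6.58 ± 0.751 TPM in heated WT against 7.44 ± 0.479 TPM at 22 °C, a difference of -4.73 ± 0.39. GASA6, a gibberellin-regulated peptide gene, averaged 1.96 ± 0.821 TPM in heated prmt5 against 99.8 ± 23.8 TPM at 22 °C, and 52.3 ± 39 TPM in heated WT against 62.9 ± 3.68 TPM at 22 °C, a difference of -4.60 ± 0.49 (SE; adjusted p = 3.9e-06). LHCB3 averaged 41.8 ± 27 TPM in heated prmt5 against 618 ± 86.4 TPM at 22 °C, and 387 ± 154 TPM in heated WT against 255 ± 22.5 TPM at 22 °C, a difference of -4.56 ± 0.70 (SE; adjusted p = 7.4e-05). ASN1, which passed the test downward in prmt5 and upward in WT, averaged 0.38 ± 0.259 TPM in heated prmt5 against 1.84 ± 0.555 TPM at 22 °C, and 1.94 ± 0.33 TPM in heated WT against 0.09 ± 0.0346 TPM at 22 °C, a difference of -2.47 ± 0.40 (SE; adjusted p = 0.00012). SAUR23, an auxin-induced gene, averaged 0.307 ± 0.321 TPM in heated prmt5 against 3.25 ± 0.986 TPM at 22 °C, and 3.55 ± 1.41 TPM in heated WT against 1.92 ± 0.961 TPM at 22 °C, a difference of -2.35 ± 0.38 (SE; adjusted p = 0.00012).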

How the results depend on the processing

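The number of genes called in prmt5 was 17544 and lay between 17004 and 17617 when 1 library was left out, at 13483 with a mean of at least 5 TPM, at 20408 with no filter on low values and between 16461 and 17783 under the other settings. For the interaction the count was 11037 and lay between 9892 and 11567 when 1 library was left out, and between 8859 (at least 5 TPM) and 12233 (no filter) under the other settings. Single genes were compared across settings only where picked by rule for the size of their change, so their stability was largely set by that choice. Genes named for their role alone were not compared, and of the interactions only the 8 highest and 8 lowest were. Of 6498 such pairs of a gene and a setting, 6495 kept direction and side of the threshold, 1 fell under it, 1 came over it and 1 turned. U2.5 was the one that turned, with a change of -0.17 (adjusted p = 0.716 in limma's test) without heated prmt5 library 3, against 0.37 with it. Without heated library 1 the change was 0.99. Its values of 7.05, 20.5 and 39.3 TPM in the heated libraries differ widely. Of 1325 pairs of a list and a setting, 1307 counts of members called in prmt5 stayed within 1.5 times. Of the counts of members whose response differs from WT, 54 of 1325 moved further than that. The filter of at least 5 TPM moved the most, 13 of 53 lists. Median-ratio scaling moved 10 (small heat shock proteins lower 3, against 6 with TPM as deposited) and quantile scaling 7 (chaperones higher 6, against 11). The list counts that follow are of members called in prmt5. With a mean of at least 5 TPM, where fewer genes are tested, the members called lower were 4 (8) for sugar starvation, 7 (12) for flowering time, 4 (7) for low oxygen, 4 (11) for root markers, 56 (89) for cytochrome P450 and 4 (15) for receptor-like kinases, with the count as reported in parentheses; those called higher were 11 (18) for the clock, 0 (1) for seed markers, 14 (24) for WRKY factors, 113 (181) for PPR proteins and 92 (224) for transposable element genes. With no filter, 3 seed markers and 804 transposable element genes were higher and 8 (5) meristem markers lower, as also with at least 1 TPM over 18 libraries. With nuclear protein-coding genes alone, an alternative chosen after seeing the data, 0 transposable element genes are left. The 9 arginine methyltransferase genes gave 4 rises (7) under quantile scaling and with only the compared groups in the fit; the cause was not tested.

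With the replicate number as a block, 17439 genes were called in prmt5 and 10750 in the interaction. Deviations of same-numbered libraries after heat and at 22 °C correlated at -0.0393, -0.0104 and 0.0241 in prmt5. These values show no pairing by number, though 3 libraries per group cannot exclude a weak one. Between heated prmt5 and heated WT the values were 0.195, 0.104 and 0.124, each above the highest with another number (-0.11, 0.0209 and 0.029). Between prmt5 and WT at 22 °C they were 0.00165, -0.136 and -0.0827, each below the highest with another number (0.129, 0.208 and 0.134). The labels name no shared batch, and whether heated libraries of the same number share one was not tested. Depth is unknown, so differences between genes near 0 TPM cannot be weighed by their reads.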

Other observations

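Further families add to the description of prmt5 after heat. NAC transcription factors rose in 55 of 70 tested cases (median 1.22), with NAC048 at 116 ± 22.1 TPM after heat against 1.32 ± 0.359 TPM at 22 °C and ANAC087 at 159 ± 14.4 TPM after heat against 5.76 ± 0.56 TPM at 22 °C. Of 48 WRKY factors tested, 24 rose, 20 fell and 4 did not pass the test. Of 95 AP2/ERF factors tested, 42 rose, 38 fell and 15 did not pass the test; DREB2C averaged 179 ± 7.64 TPM after heat against 2.92 ± 0.547 TPM at 22 °C. Histone genes fell in 27 of 38 tested cases, with AT1G09200 at 12 ± 2.25 TPM after heat against 488 ± 56.1 TPM at 22 °C and AT5G10400 at 5.32 ± 1.61 TPM after heat against 250.1 ± 17 TPM at 22 °C. AT1G75600 rose to 22 ± 5.73 TPM after heat against 0.11 ± 0.101 TPM at 22 °C. Aquaporins fell in 19 of 27 tested cases. PIP1C, of the plasma membrane, had 27.6, 14.6 and 10 TPM in heated prmt5 libraries, against 268, 322 and 315 TPM at 22 °C. TIP2;2, of the vacuole, averaged 1.07 ± 0.406 TPM after heat against 60.2 ± 17.5 TPM at 22 °C; the response in prmt5 was lower than in WT for 16, 15 and 16 of the 27 with TPM as deposited, median-ratio scaling and quantile scaling. Expansins and xyloglucan enzymes fell in 30 of 45 tested cases, XTH9 to 4.77 ± 2.31 TPM after heat against 310.1 ± 48.8 TPM at 22 °C. XTR6 rose to 210.1 ± 25.3 TPM after heat against 2.04 ± 0.384 TPM at 22 °C. Of 47 glutathione transferases tested, 16 rose, 22 fell and 9 did not pass the test; GSTU20 had 10.6, 1.14 and 1.94 TPM in heated prmt5 libraries, against 574, 651 and 539.6 TPM at 22 °C, and GSTF11 was listed at 0 in each heated library, against 20.4, 22.4 and 20 TPM at 22 °C.

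Cytosolic ribosomal proteins (222 of 235 genes passed the limit) gave 47 rises and 138 falls (median -0.41). Within a set of near-identical copies, AT1G58983 had 976, 837 and 792 TPM in heated prmt5 libraries and was listed at 0 in all 3 prmt5 libraries at 22 °C. AT1G58684 and AT1G59359, whose values are identical in every library, averaged 15.8 ± 5.7 TPM after heat against 439.9 ± 40 TPM at 22 °C; reads of such copies can be split unevenly. Of 20 nucleolar and ribosome biogenesis genes, 12 rose, 4 fell and 4 did not pass the test. NUC2, a nucleolin little used at 22 °C, had 92.3, 88.2 and 95 TPM in heated prmt5 libraries, against 2.45, 2.87 and 4.26 TPM at 22 °C. NUC1 averaged 316 ± 41.5 TPM after heat against 452 ± 103 TPM at 22 °C. The fibrillarin FIB1 averaged 110.4 ± 16.6 TPM after heat against 177 ± 35.7 TPM at 22 °C and FIB2 34.3 ± 4.82 TPM after heat against 126 ± 29.9 TPM at 22 °C. PPR proteins, which process organelle RNA, were tested in 415 cases, of which 181 rose, 125 fell and 109 did not pass the test. Of 144 cytochrome P450 genes tested, 36 rose, 89 fell and 19 did not pass the test. Of 26 cysteine-rich receptor-like kinases, 8 rose, 15 fell and 3 did not pass the test; 10 passed the limit only through 22 °C and 4 only through heat. Among the families above, those that passed only through heat and only through 22 °C numbered 15 and 22 for cytochrome P450 genes, 10 and 15 for AP2/ERF factors, 9 and 2 for NAC factors, 7 and 5 for WRKY factors, 2 and 8 for expansins and xyloglucan enzymes, and 12 and 17 for PPR proteins. In the same order they numbered 2 and 5 for glutathione transferases, 2 and 1 for histone genes, 0 and 3 for aquaporins, and 5 and 0 for cytosolic ribosomal proteins. SESA1, a seed storage gene and the only tested one of 8 seed markers, was listed at 0 in the prmt5 libraries at 22 °C and averaged 2.92 TPM after heat.

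By the number of annotated exons, the median log2 change of nuclear protein-coding genes was 0.01 in prmt5 for 2792 genes with 1 exon (WT 0.23), 0.26 for 5128 genes with 6 to 10 exons (WT 0.36) and 0.24 for 486 genes with over 20 exons (WT 0.59). These are descriptions with no test, and genes with more exons also differ in mean TPM (7.65, 17 and 12.3 TPM as the median).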
